A study of Mus musculus with 54 samples.

Results

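The proteasome genes of mouse heart and liver were examined in animals whose mitochondrial ribosome reads its code either less or more faithfully than normal. They were taken by name, as every protein-coding gene whose symbol starts with Psm, 1 letter from a to g and a number, which gave 50 of the 54356 genes in the deposited tables, 21834 of them protein-coding. Another 4 genes that match the name but are of another type were left out. The 50 comprise 8 alpha subunits of the 20S core, 7 constitutive beta subunits, 4 immunoproteasome and thymoproteasome subunits, 6 ATPases and 11 non-ATPase subunits of the 19S regulatory particle, 6 activators and inhibitors, 7 assembly chaperones, and Psmc3ip, a cofactor of meiotic recombination that carries the name only.

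The proteasome is the protease that degrades ubiquitin-tagged proteins. Its barrel-shaped 20S core is built of rings of alpha subunits, which gate the entrance, and rings of beta subunits, of which Psmb5, Psmb6 and Psmb7 cleave the chymotrypsin-like, caspase-like and trypsin-like bonds. Interferon induces Psmb8, Psmb9 and Psmb10, which replace those catalytic subunits in the immunoproteasome and favour peptides for presentation by MHC class I. The 19S particle binds, unfolds and feeds substrates into the core, the PA28 and PA200 activators open it by other means, and dedicated chaperones guide its assembly. When proteasome capacity falls short, the transcription factor NRF1 (Nfe2l1) raises most subunit genes together through antioxidant response elements. In the heart the proteasome removes misfolded contractile proteins and supports remodelling.

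The stretch upstream of 3 member genes is given because the members are known to share an upstream control, and because the catalytic genes carry much of what follows. The sequences are RefSeq windows on GRCm38.p6 that end at the base before the annotated start and run 5′ to 3′ on the gene's strand. Psmb5 is read from chr14:54617996-54618245 (minus strand), Psmb6 from chr11:70525107-70525356 (plus strand) and Psme2, an activator subunit gene induced by interferon, from chr14:55591102-55591351 (minus strand). Capitals mark every match on either strand to TGACNNNGC (antioxidant response element core), CCAAT (NF-Y box), GGGCGG (GC box) or the interferon-stimulated response element, a spaced pair of GAAA.
Psmb5: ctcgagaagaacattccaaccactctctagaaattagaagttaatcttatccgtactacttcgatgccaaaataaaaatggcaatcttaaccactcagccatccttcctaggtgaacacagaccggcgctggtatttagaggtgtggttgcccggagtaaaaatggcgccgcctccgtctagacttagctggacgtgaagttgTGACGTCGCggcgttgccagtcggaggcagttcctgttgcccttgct
Psmb6: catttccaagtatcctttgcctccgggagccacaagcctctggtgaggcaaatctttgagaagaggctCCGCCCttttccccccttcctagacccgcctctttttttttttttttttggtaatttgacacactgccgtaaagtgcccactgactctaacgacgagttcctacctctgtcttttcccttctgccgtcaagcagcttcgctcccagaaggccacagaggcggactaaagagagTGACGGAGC
Psme2: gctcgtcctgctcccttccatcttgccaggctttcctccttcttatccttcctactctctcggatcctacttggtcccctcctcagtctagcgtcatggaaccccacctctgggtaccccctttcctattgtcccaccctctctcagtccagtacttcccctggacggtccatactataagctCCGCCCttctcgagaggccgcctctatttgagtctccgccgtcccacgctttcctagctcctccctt
Psmb5 and Psmb6 each hold 1 TGACNNNGC match close to the start, while the printed Psme2 window holds a GC box alone. A Psme2 window from another annotated start, chr14:55591022-55591271, also holds GC boxes alone. Windows were found for 42 of the 50 genes, 45 windows in all. A member counted as matched when any of its windows matched, whereas the share of all is per window. Small differences between these shares are therefore not read. TGACNNNGC occurred in 5 of the 42 genes (Psmb5, Psmb6, Psmc6, Psmd12 and Psmd9), or 11.9%, against 10.2% of all 32851 windows. CCAAT occurred in 35.7% of the members against 33.8% of all, and GGGCGG in 52.4% against 32.7%. The interferon-stimulated response element occurred in 3 members (Psmb3, Psmd4 and Psmd9), or 7.14%, against 2.98%. None of the windows of Psmb8, Psmb9, Psmb10, Psme1 and Psme2 held TGACNNNGC or the interferon-stimulated response element. A match is a description of letters, and no match says only that these letters are not in that window.

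The animals were C57BL/6 mice fed a high-fat diet with 42% of its energy from fat and sampled at 20 weeks of age. The groups, with 3 mice each for each tissue, were Mrps12+/+ (control), Mrps12ep/ep (an error-prone mitochondrial ribosome) and Mrps12ha/ha (a hyper-accurate one). Both alleles are point mutations of the ribosomal protein gene Mrps12, present in every cell, so the Mrps12 level does not check the labels. All groups, the controls included, ate the high-fat diet. Values are DESeq2-normalized read counts per gene, with the 3 technical libraries of a mouse pooled by the authors, and are listed below in the order mouse 1, 2 and 3.

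Reads on genes ranged from 11202866 to 51480271 per heart and from 21238039 to 81518262 per liver. The shallowest column was hyper-accurate heart mouse 2, and it stood apart from the other hyper-accurate hearts in many genes. In the heart fit limma's array weights gave it 0.167, the lowest of the hearts. Marker genes fitted the tissue labels, with summed cardiomyocyte markers of 1712760 to 3153960 in heart against 20.3 to 6649 in liver. Summed erythroid markers (globin genes and Alas2) stood at 464387 and 1411970 in hyper-accurate hearts 1 and 3 and at 199245 in heart 2, against 91865 to 235641 in the other hearts. Summed endothelial markers stood at 55554 and 46951 in hyper-accurate hearts 1 and 3, against 27571 to 40898 in the other 7. Summed cardiomyocyte markers stood at 3153960 and 2815300 in hyper-accurate hearts 1 and 3, against 1712760 to 2281840 in the other 7. Of the 6 cardiomyocyte markers, 4 were higher and 2 lower in hyper-accurate than in control hearts. Atrial markers ranged from 1681 to 332834 among hearts, and were between 4551 and 10279 in the hyper-accurate ones. Their part in the results below was not tested. In bulk tissue, fewer cells of a type and less RNA per cell cannot be told apart.

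As a share of all normalized counts, the family as a whole was higher in every heart, at 3585 to 4060 ppm, than in any liver, at 3062 to 3533. The difference between the tissues was not tested. In the heart the 50 genes summed to 3850 ± 182 ppm of all normalized counts in controls (SD, n = 3), 3745 ± 140 in Mrps12ep/ep and 3687 ± 138 in Mrps12ha/ha mice. In the liver the sums were 3415 ± 157, 3293 ± 190 and 3169 ± 93 (SD, n = 3). The heart groups overlapped, whereas the hyper-accurate livers, at 3062 to 3230, were all below the control livers, at 3237 to 3533, by a narrow margin. A share also depends on the counts of all other genes. The median over members of the log2 difference from the control mean overlapped between these livers. It ran from -0.07 to 0.07 in control and from -0.09 to -0.01 in hyper-accurate livers. Control livers 1 and 2 also held summed skeletal muscle markers of 14822 and 18637, against 17.8 to 125.4 in the other 7 livers, and the part of these in the liver values was not tested. Members also varied less between mice of a genotype than genes in general did: the median within-genotype SD was 0.154 on the log2 scale against 0.269 over all tested genes in heart, and 0.113 against 0.250 in liver. The sets were not matched for count level, so the lower SD is not read as a trait of the family.

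Per kilobase of transcript, the constitutive beta subunits were the most abundant role in both tissues. The normalized count per kilobase had a median of 2438 in heart and 4180 in liver over these 7 genes, with Psmb6 highest of all members at 5475 and 8048. The alpha subunits had medians of 2037 and 3022 and the 19S ATPases 2109 and 3025, while the assembly chaperones lay far lower, at 226 and 465. At the bottom were the tissue-restricted members. Psma8, the alpha subunit of the testis proteasome, was counted at 16.3 to 36.5 in the 9 hearts and 12.2 to 52.8 in the 9 livers. Psmb11, the thymoproteasome subunit, ran from 0 to 6.9 in heart and 0 to 8.9 in liver. Its mean was under the minimum of 10 normalized counts in both tissues, as was that of Psme2b in liver, so 49 members were tested in heart and 48 in liver.

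**Figure D1:**
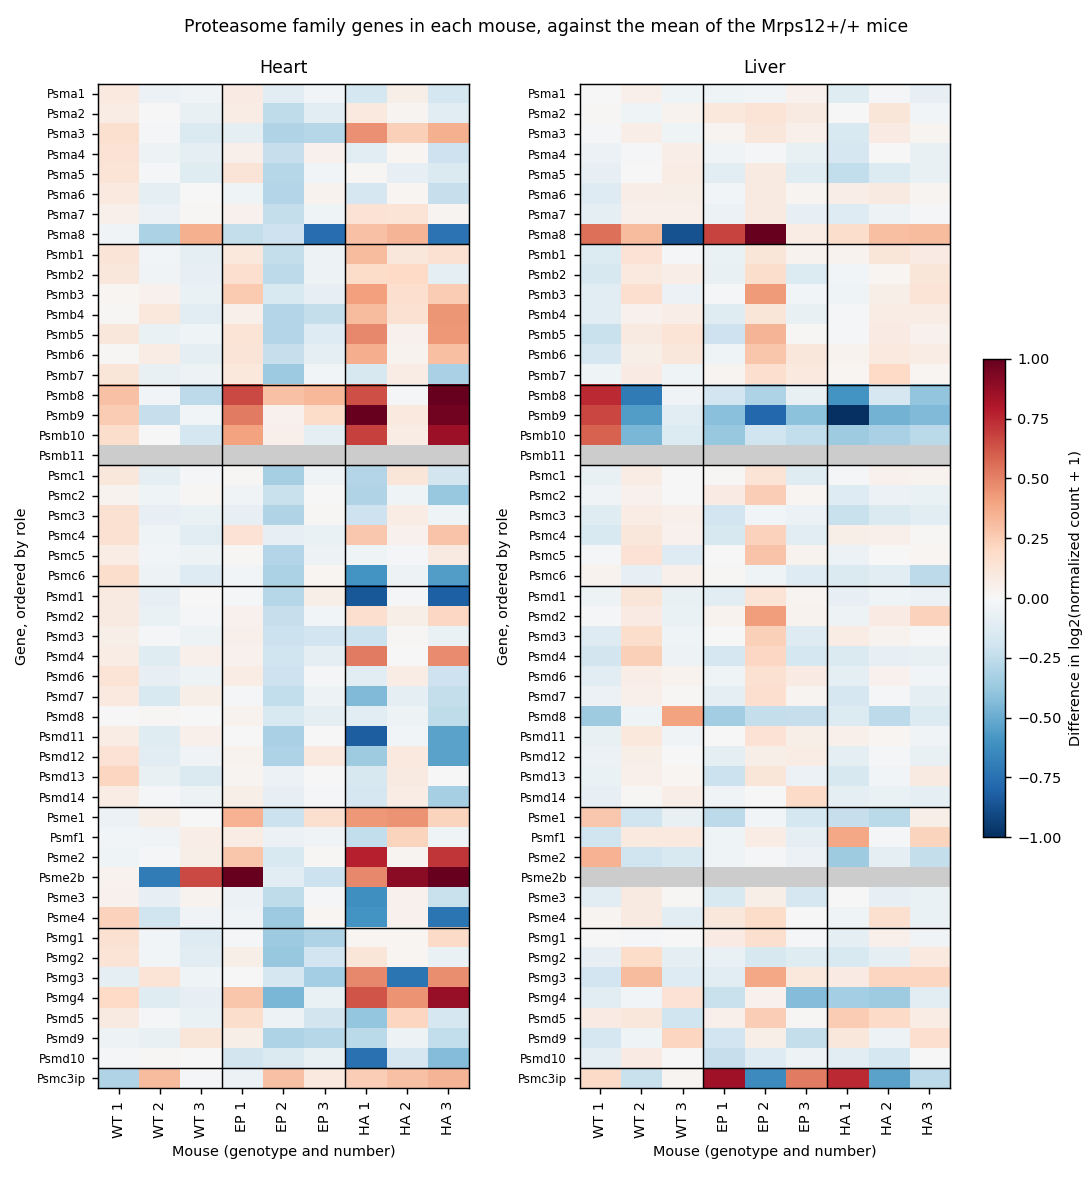
Each row is a member, grouped by role, and each column a mouse of the heart (left) or liver (right). Colour gives the difference in log2(normalized count + 1) from the Mrps12+/+ mean of that tissue, limited to 1 in either direction, and grey marks genes that were not tested. Hyper-accurate hearts 1 and 3 show the immunoproteasome rows above and many 19S rows below the control mean, error-prone heart 2 is low in nearly every row, and in liver the immunoproteasome rows of control mouse 1 stand out.

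The first comparison asked whether the hyper-accurate ribosome moved proteasome genes in the heart. No member passed limma's test at an adjusted p of 0.05 in Mrps12ha/ha against Mrps12+/+ hearts. This has to be read against the genome, where 5 of 16057 genes passed (0.0311%). At an unadjusted p under 0.05 there were 11 members of 49, 7 higher and 4 lower, against 19.7% of all genes. The groups did not overlap for 5 members that were higher and 2 that were lower, against 11.1% and 10.0% of all genes (21.2% in either direction). In direction the family was evenly divided, with 24 members higher and 25 lower, and its median log2 fold change was -0.02, equal to that of all genes.

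The direction differed between roles. The constitutive beta subunits had a median log2 fold change of 0.23, with 6 of 7 higher, and the 3 tested immunoproteasome subunits one of 0.57, all higher. The 19S non-ATPase subunits had a median of -0.14, with 9 of 11 lower, and the 19S ATPases one of -0.09, with 4 of 6 lower. The alpha subunits stood at -0.05, the activators and inhibitor at 0.17 and the chaperones at 0.03. These are descriptions of lists, with no test of the difference between roles. The roles also differ in transcript length, at 766 to 1758 bases for the constitutive beta and 1332 to 3112 for the 19S non-ATPase subunits. The part of length, described below, in the difference between roles was not tested.

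**Figure D2:**
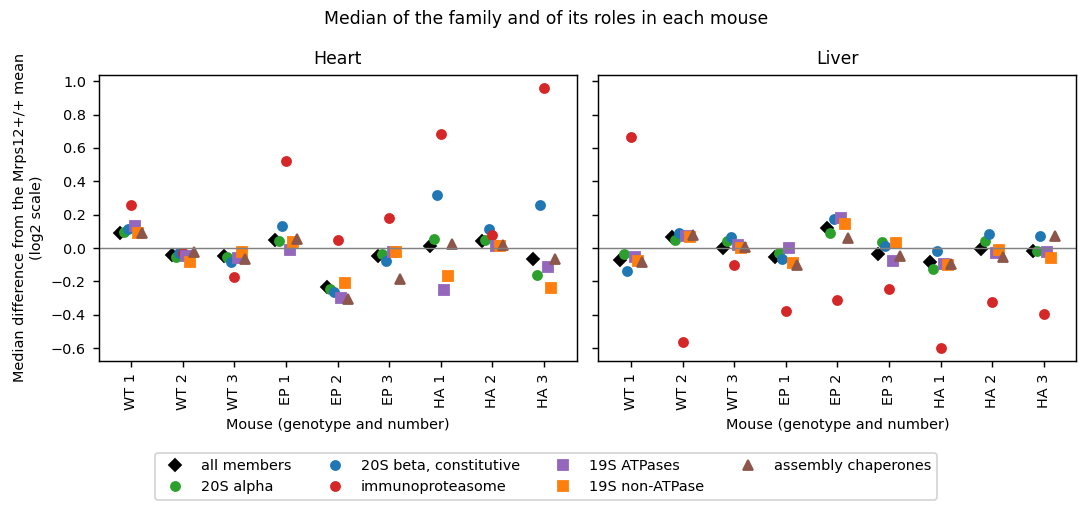
The vertical axis is the median, over the members of a role, of the difference in log2(normalized count + 1) from the Mrps12+/+ mean, and each position along the horizontal axis is a mouse. In hyper-accurate hearts 1 and 3 the immunoproteasome median (0.69 and 0.96) and the constitutive beta median (0.32 and 0.26) lie above 0 while the 19S non-ATPase median (-0.17 and -0.24) lies below; in heart 2 they are 0.08, 0.11 and 0.01.

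Among the constitutive catalytic genes, Psmb5 (chromosome 14, 54614119 to 54618022, minus strand) was counted at 2223, 1957 and 1989 in control, 2254, 1676 and 1877 in error-prone and 2862, 2114 and 2776 in hyper-accurate hearts. Hyper-accurate hearts 1 and 3 were above the 6 others and heart 2 was among them, and the log2 fold change to controls was 0.32 (SE 0.15, limma adjusted p = 0.271). Psmb6 stood at 4210.0, 4389 and 3931 in control, 4575, 3554 and 3900 in error-prone and 5360 (mouse 1), 4264 and 5138 in hyper-accurate hearts, a log2 fold change of 0.23 (SE 0.13, adjusted p = 0.326). Psmb7 was lower on average, with 4564, 3971 and 4049 in control, 4514, 3256 and 4115 in error-prone and 3751, 4415 and 3353 in hyper-accurate hearts, and groups that overlapped (log2 fold change -0.13, SE 0.15, adjusted p = 0.613).

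The immunoproteasome genes had the larger differences. Psmb9, which replaces Psmb6 and lies within the MHC region (chromosome 17, 34181987 to 34187764), was counted at 223, 159 and 183 in control, 268, 192 and 212 in error-prone and 398, 199 and 364 in hyper-accurate hearts. Its neighbour Psmb8, the counterpart of Psmb5, stood at 515, 412 and 350 in control (mouse 3 the lowest), 666, 514 and 530 in error-prone and 657, 414 and 896 in hyper-accurate hearts. Psmb10, the counterpart of Psmb7, stood at 1021, 900 and 799 in control, 1192, 934 and 848 in error-prone and 1452, 951 and 1629 in hyper-accurate hearts. In all 3 genes hyper-accurate heart 2 lay within the range of the controls. The log2 fold changes were 0.71 for Psmb9 (SE 0.27, adjusted p = 0.221), 0.57 for Psmb8 (SE 0.27, adjusted p = 0.265) and 0.54 for Psmb10 (SE 0.21, adjusted p = 0.226), none past the threshold.

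**Figure D3:**
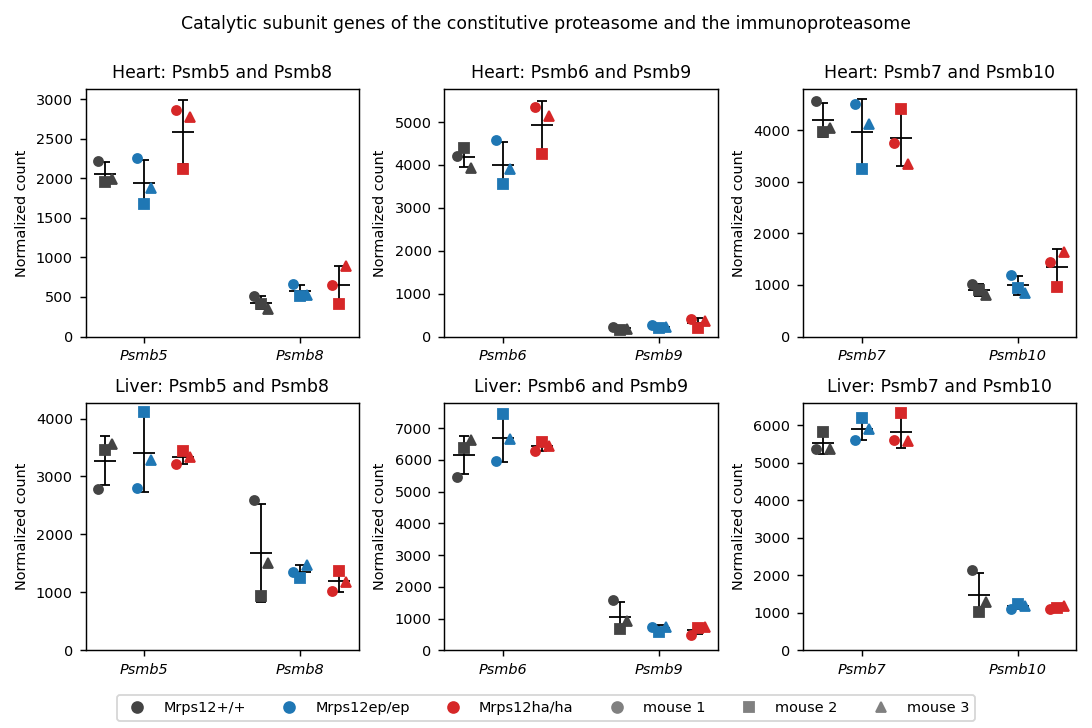
Each panel gives the normalized count of one catalytic gene or its immunoproteasome counterpart by tissue and genotype, with a point for each mouse and a bar for the mean ± SD (n = 3). Psmb8, Psmb9 and Psmb10 are spread in the hyper-accurate hearts (Psmb9 from 199 to 398) and in the control livers (Psmb9 from 674 to 1578), while Psmb5, Psmb6 and Psmb7 overlap between genotypes.

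Of the noncatalytic beta subunits, Psmb4 did not overlap between the groups, with 2339, 2494 and 2141 in control and 2896, 2573 and 3150.0 in hyper-accurate hearts (log2 fold change 0.30, SE 0.13, adjusted p = 0.241). Psmb3 also stood apart, at 1592 to 1721 in control and 1869 to 2211 in hyper-accurate hearts (log2 fold change 0.28, adjusted p = 0.266).

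Among the alpha subunits Psma3 (chromosome 12, 70974621 to 70996347, plus strand) had the lowest p of the family. It was counted at 2820.2, 2479.7 and 2282 in control, 2347, 2039 and 2062 in error-prone and 3457, 2966 and 3221 in hyper-accurate hearts, which lie above all 6 others (log2 fold change to controls 0.35, SE 0.12, adjusted p = 0.213). The value is uncertain, however, because a processed pseudogene, Gm13835 (chromosome 6, 31141979 to 31142663), is 100% identical to the Psma3 transcript over 685 bases and the authors' quantification divided reads between them. Gm13835 took 18.9 to 23.6% of the sum of both genes in control, 27.9 to 30.6% in error-prone and 7.85 to 15.0% in hyper-accurate hearts, so the share moved against the Psma3 level. With the reads of both genes summed, the log2 fold change to controls was 0.16 (SE 0.10, adjusted p = 0.389). The other 7 alpha subunits had log2 fold changes between -0.13 and 0.10.

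In the 19S particle most differences were negative. Psmd1, the large scaffold subunit of the base, stood at 5319, 4708 and 4970 (mouse 3) in control, 4920.4, 4102 and 5213 in error-prone and 2768, 4947 and 2831 in hyper-accurate hearts. Hyper-accurate hearts 1 and 3 were thus well under every other heart and heart 2 within the controls (log2 fold change -0.56, SE 0.21, adjusted p = 0.221). The same picture held for Psmd11, a subunit of the lid, at 3490.1, 3057 and 3436 in control and 1878, 3259 and 2290 (mouse 3) in hyper-accurate hearts (log2 fold change -0.46, SE 0.19, adjusted p = 0.234). Psmc6, an ATPase of the base, was at 4661, 3977 and 3778 in control and 2717, 3984 and 2799 in hyper-accurate hearts (log2 fold change -0.40, SE 0.17, adjusted p = 0.238). Psmd4, a ubiquitin receptor, was higher instead, at 3179, 2785 and 3129 in control and 4328, 3017 and 4194 in hyper-accurate hearts (log2 fold change 0.33, SE 0.15, adjusted p = 0.259). Psmd8 alone did not overlap in this particle, at 3287 to 3339 in control and 2772 to 3183 in hyper-accurate hearts, with a small log2 fold change of -0.14 (adjusted p = 0.416).

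Among the activators, the PA28 alpha and beta genes were higher, and the PA28 gamma gene Psme3 was lower on average. Psme1 (PA28 alpha) stood at 2988, 3234 and 3124 in control, 3967, 2686 and 3487 in error-prone and 4210 (mouse 1), 4255 and 3624 in hyper-accurate hearts, with no overlap between hyper-accurate and control (log2 fold change 0.37, SE 0.15, adjusted p = 0.229). Psme2 (PA28 beta) was at 1079, 1103 and 1160.3 in control, 1351, 1000.3 and 1124 in error-prone and 1911, 1136 and 1832 in hyper-accurate hearts (log2 fold change 0.51, SE 0.20, adjusted p = 0.224). Psme2b, a near copy of Psme2 (99.4% identical over 794 bases) whose reads may belong to either, had the largest log2 fold change of all members, 0.99, but on counts of 7.8, 4.3 and 12.6 in control and 11, 15.1 and 24.9 in hyper-accurate hearts (SE 0.59, adjusted p = 0.344). Psme4 (PA200), the most highly counted activator, was at 10177, 7561 and 8491 in control and 5741, 8930.4 and 5217 in hyper-accurate hearts (log2 fold change -0.43, SE 0.21, adjusted p = 0.282). Psme3 was at 3072.5, 2819 and 3044 in control and 1942, 3068 and 2543.5 in hyper-accurate hearts, which overlap (log2 fold change -0.27, SE 0.16, adjusted p = 0.347). The inhibitor Psmf1 differed little, with a log2 fold change of -0.02.

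The chaperones held opposite cases. Psmg4, which pairs with Psmg3 in assembly of the alpha ring, was at 165, 132 and 136 in control, 174, 104 and 137 in error-prone and 223, 196 and 264 in hyper-accurate hearts, and all 3 hyper-accurate values were above the 6 others (log2 fold change 0.65, SE 0.22, adjusted p = 0.213). Psmd10 (gankyrin), a chaperone of the 19S base, was at 362, 369 and 365 in control, 322, 330.5 and 348 in error-prone and 217, 326 and 271 in hyper-accurate hearts. Its controls were nearly equal and lay above all 6 mutant hearts, with a log2 fold change of -0.45 in hyper-accurate hearts (SE 0.16, adjusted p = 0.215). Psmg1, Psmg2, Psmg3, Psmd5 and Psmd9 had log2 fold changes between -0.19 and 0.08.

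Hyper-accurate heart 2 decided the count of calls. Without it, 15 members passed the test, 7 higher and 8 lower. That is 30.6% of the 49, near the share among all genes, of which 4330 of 16057 passed (27%), so the count is not a result about the family. The higher were Psmb9 (log2 fold change 1.02, limma adjusted p = 0.00912), Psmb8 (0.87), Psmb10 (0.77), Psme2 (0.75), Psmd4 (0.49), Psmb5 (0.46) and Psma3 (0.41). Psma3 was fitted here without the reads of Gm13835. The lower were Psmd1 (-0.83, adjusted p = 0.0036), Psmd11 (-0.68), Psme4 (-0.66), Psmd10 (-0.59), Psmc6 (-0.58), Psmd12 (-0.45), Psme3 (-0.42) and Psmc2 (-0.34). With that mouse kept and each heart weighted by its array weight, 19 members passed, 11 higher and 8 lower, or 38.8% of them against 34.7% of all genes. Leaving out any other heart gave no member. The array weights changed every heart at once, and ranged from 0.167 for hyper-accurate heart 2 to 4.93 for error-prone heart 3. Hyper-accurate hearts 1 and 3 are also the 2 with the highest erythroid, endothelial and cardiomyocyte marker sums of the 9.

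Within the family the fold change in hyper-accurate hearts went with transcript length. Across the 49 members Spearman's rho of the log2 fold change was -0.52 with transcript length and 0.55 with GC content, against -0.17 and 0.20 across all tested genes. In the liver the same comparison gave 0.13 and -0.15 across 48 members, and in error-prone hearts it gave -0.18 and 0.22. These are correlations across genes of the same libraries, with no test. Psmg4, at 555 bases the shortest transcript of the 49, had a log2 fold change of 0.65, and Psme4, at 6491 bases the longest, one of -0.43. Psma3, at 2846 bases and 0.35, lay off this course.

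**Figure D4:**
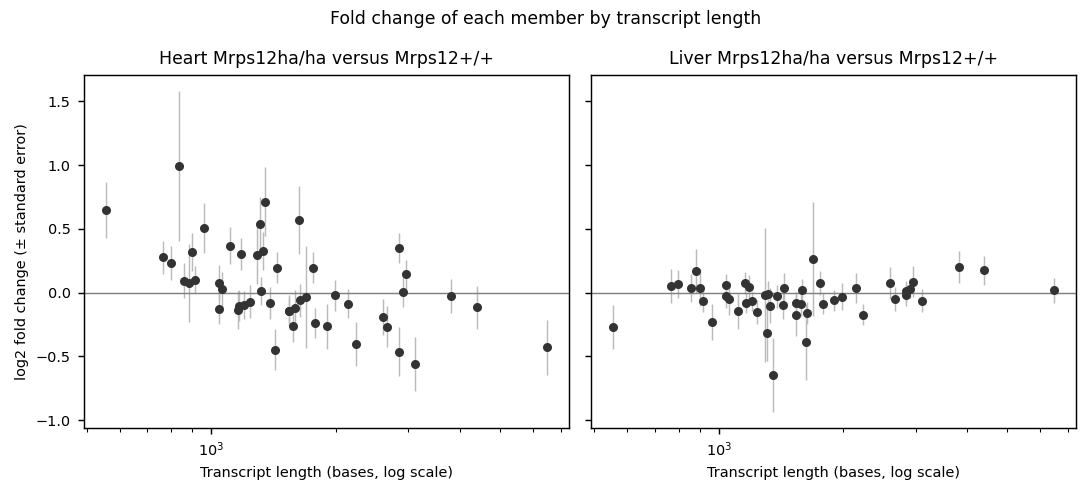
Each point is a member tested in heart (left, 49) or liver (right, 48), with its transcript length in bases on a log axis against its log2 fold change of Mrps12ha/ha over Mrps12+/+ ± standard error. Points fall with length in the heart (rho -0.52) and not in the liver (rho 0.13).

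In error-prone hearts no member passed the test, none of all 16057 genes did (0.00%), and no member had an unadjusted p under 0.05, against 1.69% of all genes. Even so 41 of the 49 members were lower than in controls, and the family median was -0.08 against -0.01 for all genes. The low side was that of 1 animal. Error-prone heart 2 had 47 of 49 members below the mean of the 9 hearts, with a median of -0.23 from the control mean, or 0.851-fold, whereas 48.8% of all genes were below theirs in that heart. It also had the highest atrial (332834), fibroblast (73699) and leukocyte (5806) marker sums of the 9, and the lowest cardiomyocyte sum (1712760). Its endothelial and erythroid sums were within the range of the other hearts. The part of these in the low side was not tested. Error-prone hearts 1 and 3 had medians of 0.05 and -0.05, and in heart 1 there were 44 of 49 members above the mean of the 9. Without heart 2 the family median was 0.00. The lowest p values belonged to Psma3 and to Psmg1, a chaperone of the alpha ring, with a log2 fold change of -0.23 each, and to Psmb8, which had the largest difference, 0.43 (SE 0.27; adjusted p = 1 for all 3). With the reads of Gm13835 added, the log2 fold change of Psma3 was -0.10 (SE 0.10). Psmg1 stood at 591, 523 and 486 in control and 523, 413 and 429 in error-prone hearts, which overlap. Only Psmd10 did not overlap, with error-prone values of 322 to 348 under controls of 362 to 369. Of all genes 8.03% did not overlap (3.64% lower and 4.40% higher).

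Set directly against error-prone hearts, hyper-accurate hearts again gave no member past the threshold, beside 4 of 16057 genes (0.0249%). Of the 49 members 8 had an unadjusted p under 0.05, 7 of them higher, against 17.9% of all genes. The median was 0.10 over members and -0.02 over all genes. The former was 0.02 without error-prone heart 2 and -0.0096 with each mouse's trend on transcript length and GC content removed. There were 6 members higher without overlap (Psma3, Psmb4, Psmg4, Psmg1, Psmb1 and Psmd2) and none lower, against 8.77% and 7.82% of all genes (16.6% together). Psma3 led with 0.58 (SE 0.12, limma adjusted p = 0.190), which became 0.25 (adjusted p = 0.265) with the reads of Gm13835 added. It was followed by Psmb4 with 0.46 (adjusted p = 0.236) and Psmg4 with 0.73 (adjusted p = 0.238). Psmb4 was at 2409, 1894 and 1968 in error-prone hearts. Without hyper-accurate heart 2, 15 members passed, 10 higher and 5 lower, or 30.6% against 23.2% of all genes, and with array weights 23 did, or 46.9% against 39.3%. Since the hyper-accurate hearts enter both comparisons, the lists are not independent of each other.

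In the liver no member was distinguishable between genotypes. Of 48 members none passed the test in any of the 3 comparisons, each beside 1 of 15314 genes (0.00653%). Unadjusted p under 0.05 was reached by 0 members for Mrps12ha/ha against Mrps12+/+ (14.1% of all genes), 0 for Mrps12ep/ep against Mrps12+/+ (9.74%) and 1 for Mrps12ha/ha against Mrps12ep/ep (8.62%). The family medians were -0.03, 0.01 and -0.06, against -0.02, -0.01 and -0.00 over all genes. Groups did not overlap for 2 members in the first comparison, both lower, against 19.9% of all genes (10.0% higher, 9.81% lower). In the second it was 1 member, higher, against 12.8% (6.49% higher, 6.28% lower), and in the third 3 members, all lower (Psmc2, Psmd14 and Psme2), against 17.8% (8.82% higher, 9.01% lower).

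The largest liver difference to the hyper-accurate animals was in Psmb9, at 1578, 674 and 927 in control, 746, 576 and 748 in error-prone and 493, 716 and 732 in hyper-accurate livers (log2 fold change -0.64, SE 0.29, limma adjusted p = 0.359). Psmb8 ran alongside, at 2596, 944 and 1506 in control, 1354, 1245 and 1472 in error-prone and 1021, 1374 and 1177 in hyper-accurate livers, and so did Psmb10, at 2132, 1032 and 1289, then 1091, 1230.1 and 1194, then 1109, 1132 and 1174. Control liver 1 was the highest of the 9 in all 3 genes. Without it the log2 fold changes in hyper-accurate livers were -0.31 for Psmb9, -0.01 for Psmb8 and -0.02 for Psmb10. That liver also had the highest sum of leukocyte markers, 12088 against 4192 to 8822 in the other 8. The part of these in the difference was not tested.

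A pair of ATPase genes of the 19S base was lower in hyper-accurate livers without overlap, each by little. Psmc6 stood at 4233, 3919 and 4278 in control, 4164, 4020.0 and 3782 in error-prone and 3753, 3825 and 3451 in hyper-accurate livers (log2 fold change to controls -0.17, SE 0.08, adjusted p = 0.388). Psmc2 was at 4205, 4429 and 4283, then 4552, 5099 and 4361, then 3927, 4136 and 4115, and it had the lowest p against error-prone livers (log2 fold change -0.20, SE 0.08, adjusted p = 0.568). Another ATPase gene, Psmc3, was at 5559, 6371 and 6253 in control and 5179, 5460 and 5636 in hyper-accurate livers and overlapped (log2 fold change -0.16, adjusted p = 0.455).

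For the error-prone livers the lowest p values after Psmb9 (log2 fold change -0.54, adjusted p = 0.560) were those of Psmd8 and Psma2. Psmd8 was at 5693, 7077 and 9650 (mouse 3) in control and 5730, 6199 and 6223 in error-prone livers (log2 fold change -0.27), and the difference came mostly from control mouse 3. Psma2 was at 3308, 3196 and 3365 in control and 3536, 3619 and 3504 in error-prone livers, higher without overlap by a log2 fold change of 0.11 (SE 0.08, adjusted p = 0.645). Psma8 had the largest value, 0.64, on 34.3, 29.1 and 12.2 against 37.6, 52.8 and 24.4 normalized counts (SE 0.45). In the comparison of both mutants the inhibitor Psmf1 (1409, 1526 and 1365 in error-prone, 1894, 1437 and 1695 in hyper-accurate livers) and the chaperone Psmd9 (2134, 2543 and 2071, then 2635, 2349 and 2739) came after Psmc2, with log2 fold changes of 0.22 and 0.20 and overlapping groups.

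The difference between tissues was tested directly, over 14070 genes measured in both. The sample titles do not say whether a heart and a liver came from the same mouse, and the fit held no term for the mouse. For the hyper-accurate effect no member passed, beside 10 genes in all (0.0711%), and 8 of 48 members had an unadjusted p under 0.05, against 13.7% of genes. The lowest p values were those of Psmg4, at 0.65 in heart and -0.27 in liver (difference 0.92, SE 0.28, limma adjusted p = 0.226), and of Psmb9, at 0.71 and -0.64 (difference 1.36, SE 0.43, adjusted p = 0.229). Without hyper-accurate heart 2 there were 8 members past the threshold, 16.7% against 12.1% of all genes, and with array weights 9, 18.8% against 14.6%. For the error-prone effect no member passed, beside 1 gene (0.00711%), and 1 member, Psma3, had an unadjusted p under 0.05 against 5.57% of genes. The reads of Gm13835 were not added to Psma3 in this fit.

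The RNA balance between the catalytic genes was measured within each mouse. It was the normalized count of an immunoproteasome gene over that of its constitutive counterpart, which does not depend on the library's scale. Counts were not divided by transcript length (1628 bases for Psmb8 and 899 for Psmb5), so the percentages serve to compare mice only. In heart Psmb8 over Psmb5 was 20.6% ± 2.82 in control, 29.5% ± 1.20 in error-prone and 24.9% ± 6.57 in hyper-accurate mice (SD, n = 3). Psmb9 over Psmb6 was 4.53% ± 0.842, 5.57% ± 0.259 and 6.40% ± 1.5, and Psmb10 over Psmb7 was 21.6% ± 1.62, 25.2% ± 4.16 and 36.3% ± 13.7 (SD, n = 3). It was the error-prone hearts that did not overlap with controls: the log2 ratio was higher by 0.52 for Psmb8 over Psmb5 and by 0.31 for Psmb9 over Psmb6 in all 3 mice. The exact two-sided permutation p was 0.1 for both, the smallest that 3 against 3 mice allow, and 0.6 after adjustment over the 18 ratio comparisons. Psmb10 over Psmb7 in hyper-accurate hearts was 38.7% and 48.6% in mice 1 and 3 and 21.5% in mouse 2 (exact permutation p = 0.3).

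In liver the ratios were 54.3% ± 34.6, 41.1% ± 9.51 and 35.6% ± 4.06 for Psmb8 over Psmb5, and 17.8% ± 9.72, 10.5% ± 2.49 and 10.0% ± 1.91 for Psmb9 over Psmb6, in control, error-prone and hyper-accurate mice (SD, n = 3). Psmb10 over Psmb7 was 27.2% ± 11.4, 19.8% ± 0.419 and 19.6% ± 1.60. The wide control SD came from mouse 1, with 93.3%, 28.9% and 39.8%, and no liver comparison had an exact permutation p below 0.3.

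The immunoproteasome genes varied together with the interferon-responsive genes of the same animal. The mean log2 level of Psmb8, Psmb9 and Psmb10 was set against that of 15 MHC class I and interferon genes (among them Tap1, Tap2, B2m, Irf1, Gbp2 and Gbp3) over the 9 mice of a tissue. Pearson's r was 0.80 in heart (Spearman's rho 0.85) and 0.98 in liver (rho 0.95), and it was 0.66 and 0.81 after the 2 mice farthest from the median were left out, which in liver included control 1. Against the leukocyte markers r was 0.35 in heart (rho 0.30) and 0.72 in liver (rho 0.43), the latter 0.26 without the 2 farthest mice. These 4 relations are descriptions over 9 mice that span 3 genotypes, and both measures of a mouse share its scaling.

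**Figure D5:**
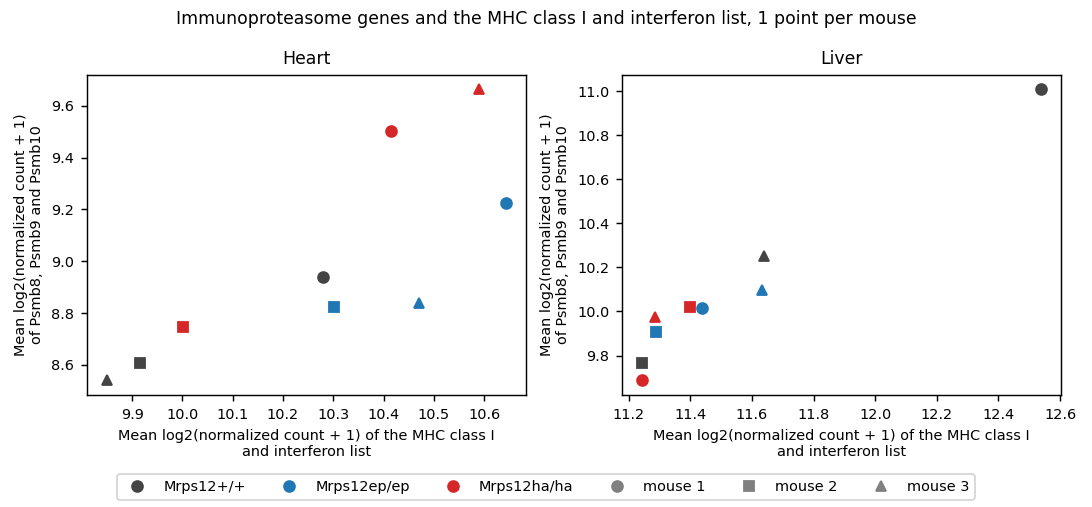
Each point is a mouse, coloured by genotype and shaped by mouse number, with the mean log2(normalized count + 1) of the MHC class I and interferon list on the horizontal axis and that of Psmb8, Psmb9 and Psmb10 on the vertical one. The points rise together in heart (r = 0.80) and in liver (r = 0.98), where control mouse 1 lies far to the upper right.

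No gene of that interferon list passed the test, but its signs were uneven. In error-prone hearts all 15 genes were higher than in controls, with a median log2 fold change of 0.51, 6 at an unadjusted p under 0.05 and 7 without overlap (against 1.69% and 4.40% of all genes). Gbp3, an interferon-induced GTPase, was at 536, 350 (mouse 2) and 345 in control, 849.9, 685 and 710.2 in error-prone and 749, 550 and 681 in hyper-accurate hearts (log2 fold change 0.89 in error-prone, limma adjusted p = 1). In hyper-accurate hearts 13 of 15 were higher, with a median of 0.31. In liver 14 of 15 were lower in either mutant, with medians of -0.38 in hyper-accurate and -0.36 in error-prone mice, where control liver 1 again held the highest Gbp2 count.

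The genes around the proteasome were read from lists of their own, and none of their members passed in any comparison. Of the 13 genes of the NRF1 axis, 9 were lower in hyper-accurate hearts, with a median of -0.22, and 5 had an unadjusted p under 0.05, against 19.7% of all genes. Nfe2l1 itself was at 31632, 26621 and 28912 in control, 27408, 22179 and 29029 in error-prone and 11961, 29627 and 14856 in hyper-accurate hearts (log2 fold change -0.74, SE 0.30, limma adjusted p = 0.229). As with Psmd1, hearts 1 and 3 were far below and heart 2 among the controls, and without heart 2 the log2 fold change was -1.12 (limma adjusted p = 0.00395). Without that heart 4330 of 16057 genes passed (27%), so this call is not read as particular to Nfe2l1. Its relative Nfe2l2 did not overlap, at 4202, 4296 and 4792 in control and 2953, 3751 and 3313 in hyper-accurate hearts (log2 fold change -0.41, adjusted p = 0.194). Ddi2, the protease that activates NRF1, showed no such difference (0.01, adjusted p = 0.947).

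Other subunits and cofactors had a median of -0.15 in hyper-accurate hearts, with 13 of 16 lower. Rad23b, a shuttle that carries ubiquitinated proteins to the proteasome, was at 6069, 5698 and 6150.0 in control and 2314, 5723 and 2571 in hyper-accurate hearts (log2 fold change -0.88, adjusted p = 0.213). The assembly factor Pomp (-0.13) and the ubiquitin receptor Adrm1 (0.06) differed little. Of 10 muscle ubiquitin ligase and FoxO genes 9 were lower, with a median of -0.34. Trim63 (MuRF1) was at 7166, 6241 and 6169 in control, 6027, 5306 and 5417 in error-prone and 4094, 5989 and 3723 in hyper-accurate hearts, so that all 6 mutant values were below the 3 controls (log2 fold change -0.53 in hyper-accurate, adjusted p = 0.212). Fbxo32 (atrogin-1) overlapped, with -0.30 (adjusted p = 0.448).

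In liver the proteasome-associated gene with the lowest p was Zfand2a, a stress-induced proteasome adaptor. It was at 754, 1096 and 1109 in control, 615, 644 and 666 in error-prone and 566, 612 and 566 in hyper-accurate livers, and all 6 mutant values were below the controls. The log2 fold change was -0.74 in hyper-accurate (SE 0.15, limma adjusted p = 0.117) and -0.60 in error-prone livers (SE 0.15, adjusted p = 0.365). Control liver 1, at 754, was the control nearest to the mutant values. Without it both comparisons passed, at -0.92 (adjusted p = 0.0389) and -0.78 (adjusted p = 0.0378). The share of all genes that passed without it is not given here, so these calls are not read as particular to Zfand2a.

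Heart and liver were normalized separately by the authors, so levels were set side by side only as shares of all normalized counts, and with no test. Of the 50 members 36 overlapped between the 9 hearts and 9 livers, 9 were higher in every heart and 5 in every liver. The share of all genes without overlap between the tissues was not computed, so these counts are not read as a result about the family. Psme2b differed most on the heart side, at 0.362 against 0.0211 ppm, but on few counts, with livers at 0 and reads that may belong to Psme2. Psmc3ip, the member by name only, was 7.31-fold higher in heart at 2.44 against 0.334 ppm. Among the other 7 members on that side Psme4 led with 239.8 against 83.7 ppm, or 2.87-fold, followed by the chaperone Psmg2 at 2.03-fold and the ATPase Psmc3 at 1.77-fold. On the liver side were 3 chaperones: Psmd9, with 17.8 in heart and 46.8 in liver, 2.64-fold higher, Psmg3, 1.77-fold higher, and Psmd5, 1.51-fold higher. The inhibitor Psmf1 (1.33-fold) and the 19S subunit Psmd8 (1.32-fold) were there as well. Every immunoproteasome gene overlapped between the tissues.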

How the data were processed

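RNA from total heart and liver was sequenced by the authors (Illumina HiSeq, TruSeq, paired ends), with 54 libraries for 3 mice per genotype and tissue and 3 technical libraries per mouse. Per the study's methods and the submitters' processing notes, reads were trimmed with Trim Galore 0.4.1, cutadapt 1.18 and FastQC 0.11.8 and quantified with Salmon 1.1.0 on GENCODE vM21 (GRCm38.p6), and DESeq2 was run per tissue without mitochondrial transcripts. The values used are the authors' deposited DESeq2-normalized counts, 1 column per mouse and a table per tissue; that the technical libraries were pooled was read from the column names. The deposited tables of the authors' own comparisons hold fold changes and p-values and were not used. In the lowest range 100% of values were whole multiples of the worth of 1 read (tolerance 0.1 read), which gave the read totals. PCR reads without molecular identifiers are not independent molecules, and the totals speak of counting error only.

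Genes whose mean reached 10 in the 9 columns of a tissue were fitted on log2(normalized count + 1) with limma 3.58.1 (lmFit, eBayes with trend; R 4.3.3), 3 genotypes in 1 fit, and Benjamini-Hochberg adjustment over all tested genes at 0.05. Fold changes are on that scale and understate those of low genes. The tissue effects were compared by an interaction contrast over 18 columns. Ratios were tested by exact two-sided permutation (scipy 1.17.1), which cannot go below 0.1 for 3 against 3 mice. No column was left out. Alternatives covered pseudocounts of 0.1 and 8, other filters on low values, re-centring, array weights, a fit of 2 genotypes, a replicate block and leaving out each mouse, and, chosen after seeing the data, limma-voom on recovered whole reads, removal of the trend on transcript length and GC content, the sum of Psma3 and Gm13835, and mice left out of ratios and correlations. edgeR and DESeq2, planned as alternatives on whole reads, were not run, and limma-voom took their place. The scripts were tested on simulated data. The members, gene lists and tests were chosen with earlier results of these data known. Values per mouse are given for the catalytic genes, the tissue-restricted members, the 3 members with the lowest p and the one with the largest fold change in each comparison, and fixed genes plus the 2 of lowest p of each other list; the remaining genes printed were chosen after their values were seen. Some genes that the rule would name are not reported here.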

Additional observations from a re-analysis of the deposited data

How the results depend on the processing

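The counts of members called were unaffected by the pseudocount, the filters on low values, re-centring on the median of all genes, the 2-genotype fit, limma-voom on recovered whole reads and the removal of the trend on transcript length and GC content: each gave 0 in all 6 comparisons. They moved with array weights, which alter the weight of every mouse, and without hyper-accurate heart 2. With array weights 19 members passed in hyper-accurate against control hearts, 23 against error-prone hearts and 9 in the test between tissues. Leaving out each mouse in turn gave 0 to 15, 0 to 15 and 0 to 8 members in these, all from that heart, and 0 elsewhere. The median log2 fold change between hyper-accurate and error-prone hearts was -0.0096 with the length and GC trend removed, with or without the replicate block, and that between the mutant livers ran from -0.077 to 0.013 as mice were left out, the latter without error-prone liver 2. Leaving out a mouse took the log2 ratio of Psmb8 over Psmb5 in hyper-accurate against control livers from -0.82 to 0.061 and in error-prone against control livers from -0.64 to 0.25, both turned by control liver 1, and between the mutant livers took Psmb9 over Psmb6 from -0.26 to 0.11 and Psmb10 over Psmb7 from -0.076 to 0.042. Correlations of the immunoproteasome genes with the interferon list were 0.66 in heart and 0.81 in liver without the 2 farthest mice, and with 1 mouse left out 0.75 to 0.87 in heart, 0.88 to 0.99 in liver and, for the leukocyte list in liver, 0.15 to 0.79. Ddi2 in hyper-accurate hearts was -0.0014 with array weights and ran from -0.045 to 0.10 with a mouse left out (negative without control heart 1 or hyper-accurate heart 2 or 3), and Adrm1 was -0.19 with the length and GC trend removed, with or without the replicate block. The replicate numbers are shared by the groups, but correlations of same-numbered mice ran from -0.23 to 0.58 and 5 of 18 were best with their own number, so the numbers were not taken as pairs; with the replicate block 0 members were called in all 6 comparisons. The cause of these shifts was not tested. The planned edgeR and DESeq2 fits were not run, and limma-voom on the recovered whole reads was fitted in their place. Depth limits Psma8, Psmb11 and Psme2b, which rest on few reads.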
